A study of Mus musculus with 2 samples.

Results

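The genes described here are 9 CXC chemokines, Cxcl1, Cxcl2, Cxcl5, Cxcl9, Cxcl10, Cxcl12, Cxcl13, Cxcl14 and Cxcl16, and the receptor Cxcr4. They were listed by name, and all 10 were found among the 19169 genes of the deposited single-cell table. Gastrocnemius muscle was taken 14 days after injury with cardiotoxin (CTX), a snake toxin that destroys myofibers, from male mice on a C57BL/6J background. There was 1 library from wild-type (WT) mice and 1 from GSDME-KO mice, which lack Gsdme, a pore-forming gasdermin, in the whole body. The methods name 5 mice of each genotype and do not state whether they were pooled. Every cell analysed came from CTX-injured muscle. With 1 library per genotype no difference between genotypes could be tested, so all intervals below are exact 95% intervals that cover counting error only.

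CXC chemokines are small secreted proteins that draw leukocytes along a gradient through G protein-coupled receptors. Cxcl1, Cxcl2 and Cxcl5 carry the ELR motif and attract neutrophils through Cxcr2, whereas Cxcl9 and Cxcl10 are induced by interferon and attract T and NK cells through Cxcr3. Cxcl12 is the ligand of Cxcr4 and retains leukocytes and progenitors in their niches, Cxcl13 attracts B cells through Cxcr5, Cxcl16 is a membrane-bound ligand of Cxcr6, and Cxcl14 is made constitutively in many epithelia and stroma. In injured muscle, fibro-adipogenic progenitors (FAPs, the PDGFRα-positive stromal cells), macrophages, endothelium and muscle stem cells (MuSCs) are known to signal to each other through such factors.

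Of the ligands, 6 lie on mouse chromosome 5. In GRCm38.p6 Cxcl5 (chr5:90759298-90761625), Cxcl1 (chr5:90891245-90893121) and Cxcl2 (chr5:90903899-90905938) share a cluster with Ppbp, Pf4 and Cxcl3. Cxcl9 (chr5:92321331-92328079) and Cxcl10 (chr5:92346638-92348889) are neighbours farther along, and Cxcl13 lies at chr5:95956939-95961068. RefSeq promoters of this build were found for 8 of the 10 genes. Those of Cxcl1, Cxcl2, Cxcl9 and Cxcl10 are shown because the levels of these inducible ligands, given below, differed between libraries or subsets. Each covers the 250 bases upstream of the start, 5′ to 3′ on the strand of the gene. Capitals mark matches on either strand to the κB consensus, the letters bound by NF-κB, or to GAAA, any 2 bases and GAAA again, the core of the interferon-stimulated response element (ISRE).
Cxcl1 (chr5:90890995-90891244, plus strand): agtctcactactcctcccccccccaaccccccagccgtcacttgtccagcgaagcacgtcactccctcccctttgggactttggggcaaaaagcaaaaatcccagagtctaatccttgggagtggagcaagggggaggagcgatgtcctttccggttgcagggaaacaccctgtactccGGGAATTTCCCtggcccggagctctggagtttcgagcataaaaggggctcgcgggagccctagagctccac
Cxcl2 (chr5:90903649-90903898, plus strand): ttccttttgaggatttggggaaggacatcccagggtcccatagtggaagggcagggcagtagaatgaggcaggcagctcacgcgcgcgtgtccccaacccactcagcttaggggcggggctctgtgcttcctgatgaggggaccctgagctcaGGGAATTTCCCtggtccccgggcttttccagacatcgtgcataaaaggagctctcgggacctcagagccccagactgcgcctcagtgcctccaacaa
Cxcl9 (chr5:92328080-92328329, minus strand): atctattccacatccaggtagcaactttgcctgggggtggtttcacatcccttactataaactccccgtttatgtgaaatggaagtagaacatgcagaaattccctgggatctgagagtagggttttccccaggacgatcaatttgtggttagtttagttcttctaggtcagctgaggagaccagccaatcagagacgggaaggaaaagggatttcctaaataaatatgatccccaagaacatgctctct
Cxcl10 (chr5:92348890-92349139, minus strand): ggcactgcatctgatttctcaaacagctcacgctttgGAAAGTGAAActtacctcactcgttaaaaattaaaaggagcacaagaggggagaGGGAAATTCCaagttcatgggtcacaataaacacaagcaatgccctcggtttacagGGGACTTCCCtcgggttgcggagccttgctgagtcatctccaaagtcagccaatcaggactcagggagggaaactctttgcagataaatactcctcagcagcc
Cxcl1 and Cxcl2 both held the κB match GGGAATTTCC, at positions -71 to -62 and -97 to -88 from the start, each overlapped by a match on the other strand. Cxcl10 held κB matches at -159 to -150 and at -103 to -94, and GAAAGTGAAA at -213 to -204. The remaining match among the 8 was GAAACAGAAA at -172 to -163 of Cxcl14, and neither motif was found in this window of Cxcl9, Cxcl12, Cxcl13 or Cxcr4. Among all 32851 promoters in the reference, 3.9% held the κB consensus and 2.98% held the ISRE core in the same window. A match describes letters and not a bound site.

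There were 6354 cells with 44758518 UMIs in the library labelled WT (median 5740 per cell) and 7078 cells with 50930010 UMIs in that labelled GSDME-KO (median 5962.5), and 4 barcodes occurred in both. Gsdme did not separate the libraries (5.03 and 4.65 UMIs per 1000000 UMIs, log2 ratio -0.11, interval -0.38 to 0.16), and the kit reads the 5′ end of transcripts while the altered part of the gene is not given in the sources used here. The libraries are therefore named as labelled. Cells were clustered without the CXC genes, and each cluster was called X-like by its markers. FAP-like cells (1950 in WT and 2478 in GSDME-KO), macrophage-like cells (972 and 1185) and endothelial-like cells (1188 and 1186) were the largest types. A cluster of 291 and 342 cells carried pericyte markers together with endothelial RNA and is kept apart.

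Levels below are UMIs of a gene per 1000000 UMIs of all genes in that cell type and library (CPM), with WT first. Ratios are log2 of GSDME-KO over WT, and a ratio is called past the fold when the levels differ at least 1.5-fold and the gene has at least 20 UMIs in both libraries together. The 10 genes divided by where they were read. FAP-like cells, with 30.7% and 35% of the cells, held 63.6% and 77.3% of all Cxcl1 UMIs, 88.2% and 88.8% of Cxcl5, 91.9% and 84.8% of Cxcl13 and 86% and 90.9% of Cxcl14. Macrophage-like cells, with 15.3% and 16.7% of the cells, held 88.2% and 85.1% of Cxcl2, 51.8% and 62% of Cxcl16 and 52.1% and 57.6% of Cxcr4. Endothelial-like cells held 49.2% and 43% of Cxcl12. Cxcl9 and Cxcl10 were spread over FAP-like, endothelial-like and mixed pericyte-like cells.

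**Figure D1:**
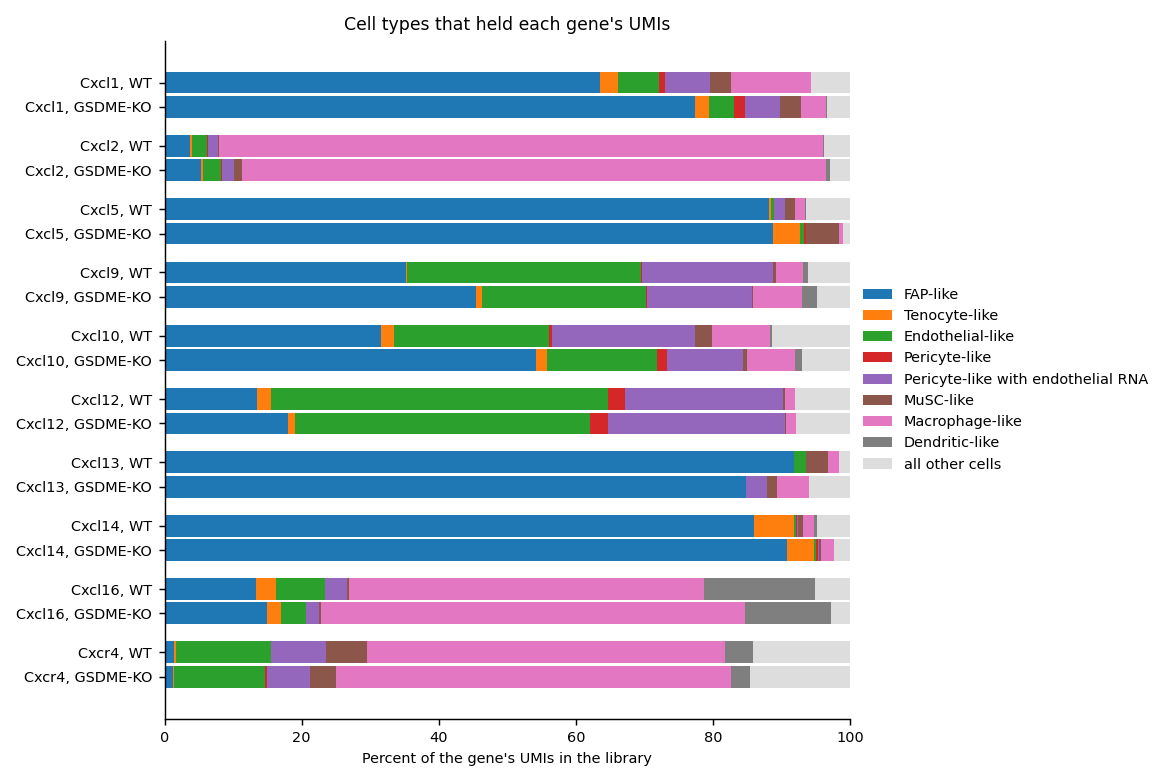
Percent of each gene's UMIs (horizontal axis) by cell type, 1 bar per gene and library. FAP-like cells made up most of the bars of Cxcl1, Cxcl5, Cxcl13 and Cxcl14 and macrophage-like cells those of Cxcl2, Cxcl16 and Cxcr4, while the FAP-like part of Cxcl10 was 31.6% in WT and 54.1% in GSDME-KO.

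**Figure D2:**
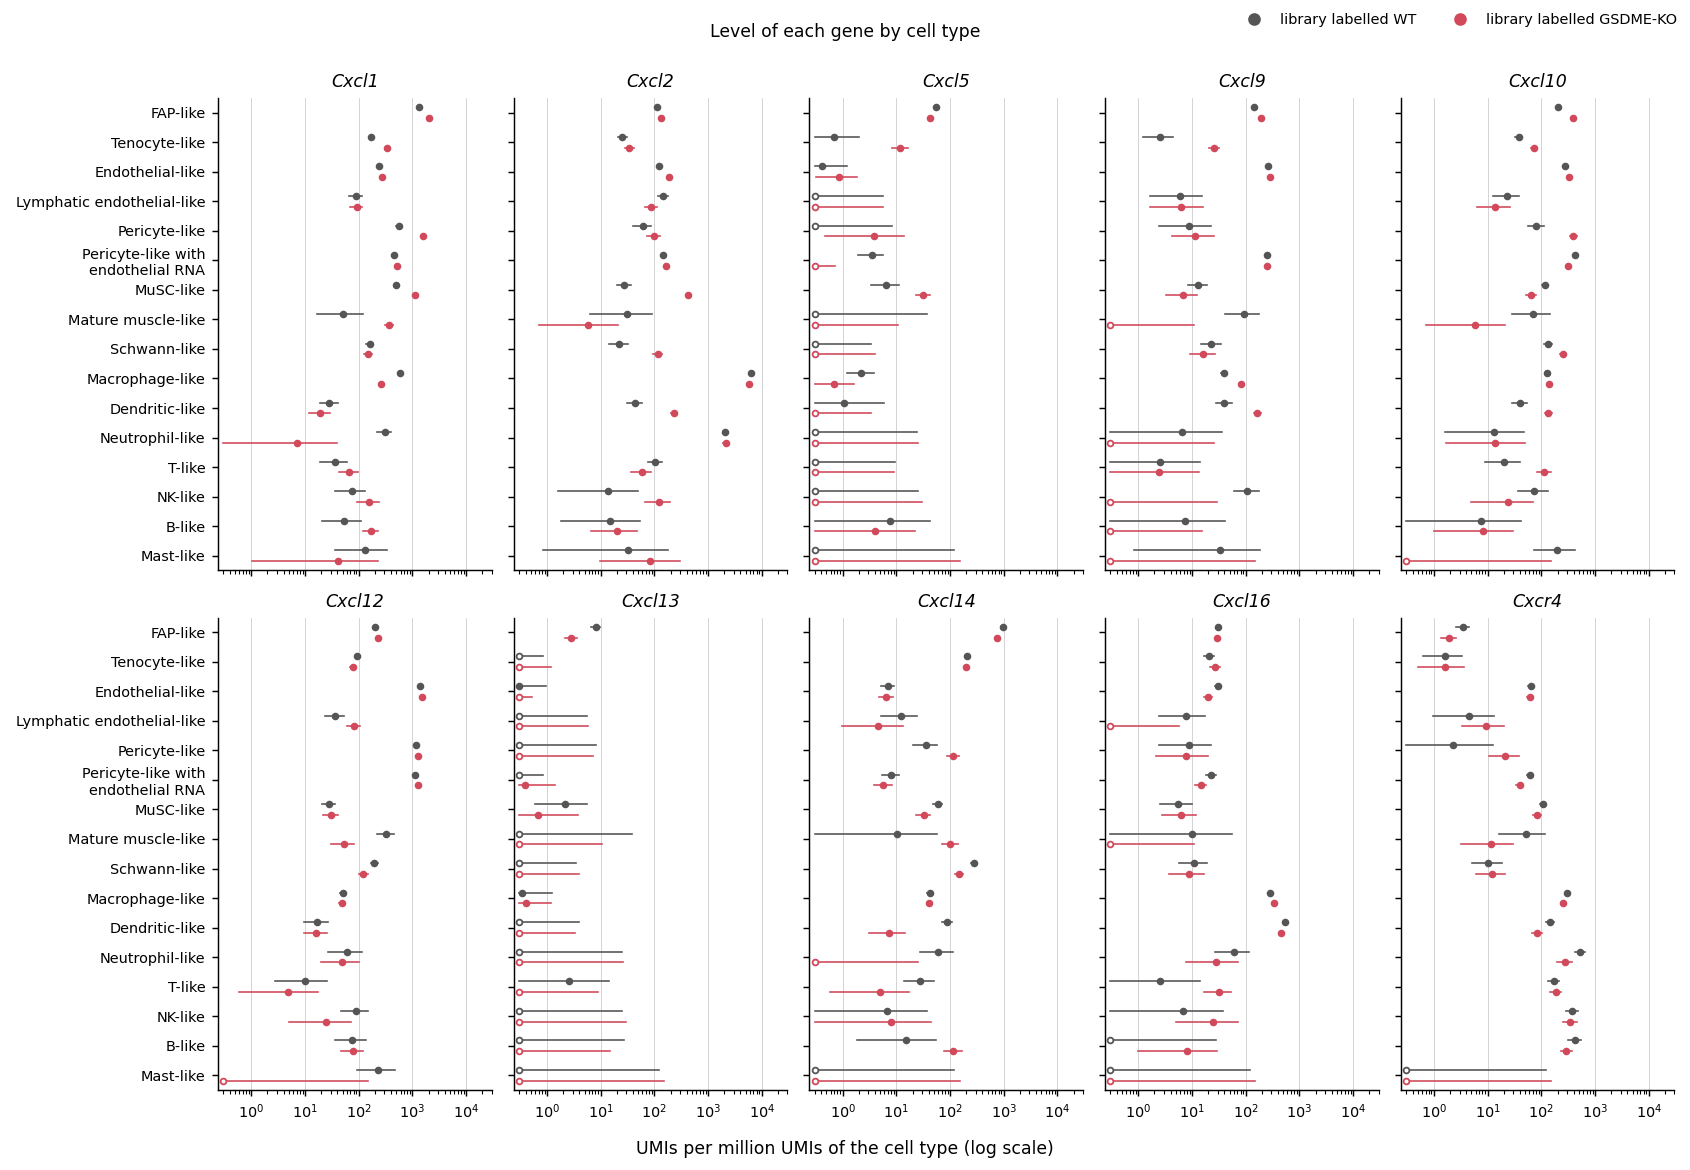
Level of each of the 10 genes (UMIs per 1000000 UMIs of the cell type, log scale) by cell type, grey for the library labelled WT and red for that labelled GSDME-KO; points are sums over cells, lines are exact 95% Poisson intervals, open symbols have no UMI, and values under 0.3 are drawn at 0.3. Cxcl1 shows the red point to the right in FAP-like, pericyte-like and MuSC-like cells and to the left in macrophage-like cells.

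Within FAP-like cells, 1 of the 10 genes was higher past the fold in GSDME-KO (Cxcl10) and 2 were lower (Cxcl13 and Cxcr4), against 5.28% of 13109 genes higher and 8.26% lower. Within macrophage-like cells 1 of 8 genes with enough UMIs was higher (Cxcl9) and 1 lower (Cxcl1), against 6.98% and 8.85% of 11337 genes. In endothelial-like cells 1 of 8 was higher (Cxcl2) and 0 were lower, against 5.96% and 5.68%. These shares rest on so few genes that they say little beside the background. The smaller types had no common direction. Pericyte-like cells with endothelial RNA had 0 of 8 higher and 2 lower (background 8.19% and 5.76%). Schwann-like cells had 2 of 8 and 2 (10.9% and 9.04%). Lymphatic endothelial-like cells had 1 of 4 and 2 (15.5% and 8.02%), and neutrophil-like cells 0 of 3 and 2 (26.7% and 17.3%). Dendritic-like cells had 3 of 8 and 2 (14.4% and 11.4%). T-like cells had 2 of 4 and 1 (12.4% and 17.3%), and B-like cells 2 of 4 and 0 (13.6% and 26%). Mature muscle-like cells had 2 of 3 and 1 (20.7% and 33.3%), and NK-like cells 1 of 2 and 0 (15.8% and 18.9%). In pericyte-like cells 4 of 5 were higher (Cxcl1, Cxcl2, Cxcl10 and Cxcl14, background 13.6%) and 0 lower (12.9%), and in tenocyte-like cells 4 of 8 (Cxcl1, Cxcl5, Cxcl9 and Cxcl10, background 10.4%) and 0 lower (5.76%). In MuSC-like cells 3 of 8 were higher (Cxcl1, Cxcl2 and Cxcl5) and 3 lower (Cxcl9, Cxcl10 and Cxcl14), against 16.2% and 11.7%. Several of these rested on a few cells. In pericyte-like cells Cxcl2 (27 and 50 UMIs, interval -0.03 to 1.41) and Cxcl14 turned to -0.18 and -1.99 without the 1% of cells richest in the gene. In tenocyte-like cells 3 cells held 92.6% of the 81 UMIs of Cxcl9 in GSDME-KO, and Cxcl5 had 3 and 37 UMIs, none of them left without the richest 1% of cells. In MuSC-like cells Cxcl9 had 24 and 10 UMIs, with an interval that included 0 and a ratio that turned to 1.93 and 0.089 under alternatives, and Cxcl5 had 12 and 46 UMIs, of which 0 and 8 were left without the richest 1%. The median log2 ratio of the 10 genes in FAP-like cells was 0.06, against -0.05 over all genes there.

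**Figure D3:**
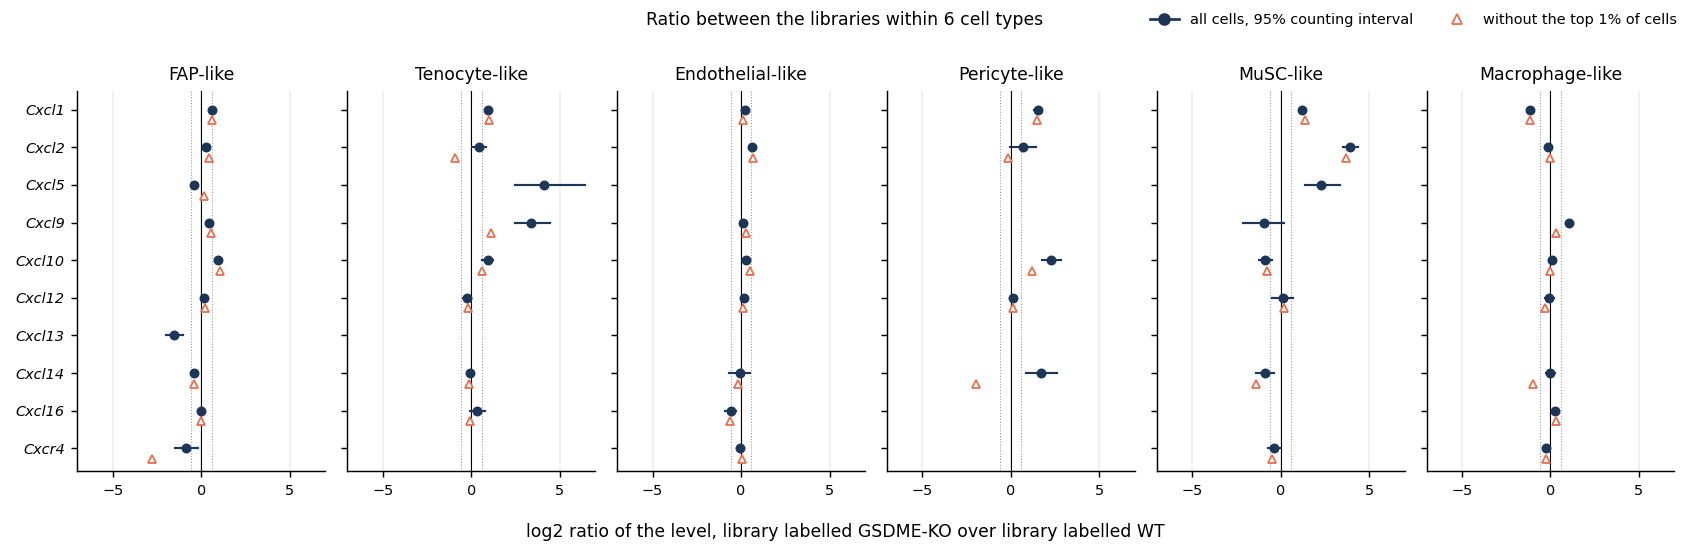
log2 ratio of each gene's level, GSDME-KO over WT (horizontal axis), within 6 cell types, with exact 95% counting intervals as lines and triangles for the ratio without the 1% of cells holding the most UMIs of that gene. For Cxcl1 both symbols lie together, right of 0 in FAP-like, tenocyte-like, pericyte-like and MuSC-like cells and left of 0 in macrophage-like cells, whereas for Cxcl14 in pericyte-like cells they lie on opposite sides of 0.

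Cxcl1, a neutrophil attractant, was read mainly in FAP-like cells. Its level there was 1352 CPM (1333 to 1372) in WT and 2010 CPM (1990 to 2030) in GSDME-KO, a log2 ratio of 0.57 (0.55 to 0.60) that lay just under the fold. The intervals of the libraries did not overlap. After each cell was thinned to 1000 UMIs, 48.1% and 60% of FAP-like cells held a Cxcl1 UMI (70% and 80% before thinning). In T-like cells, used as a background type, the thinned shares were 2.47% and 3.49%, with median depths of 4237.5 and 3925 UMIs against 6992 and 7948.5 in FAP-like cells.
Other stromal and muscle types shared this direction. Cxcl1 was 557 and 1593 CPM in pericyte-like cells (log2 ratio 1.52, 1.31 to 1.73), 485 and 1133 CPM in MuSC-like cells (1.22, 1.11 to 1.34) and 171 and 334 CPM in tenocyte-like cells (0.97, 0.83 to 1.11). Without the 1% of cells richest in Cxcl1 these ratios were 1.48, 1.36 and 1.01. Mature muscle-like cells, with 33 and 60 cells, had 50.9 and 364 CPM (2.84, 1.58 to 4.49), from 5 and 126 UMIs. In pericyte-like cells the summed level of 6 FAP markers went from 3172 to 5984 CPM and that of 5 erythroid markers from 127 to 20001 CPM, and their part in the pericyte-like ratios was not tested. Endothelial-like cells were closer, at 239 and 277 CPM (0.21, 0.12 to 0.31). So were the larger group of pericyte-like cells with endothelial RNA, at 458 and 507 CPM (0.15, 0.06 to 0.23).
Macrophage-like cells went the other way. Cxcl1 was 591 CPM (571 to 611) in WT and 262 CPM (250 to 274) in GSDME-KO, a log2 ratio of -1.18 (-1.26 to -1.09), and the thinned shares of cells with a UMI were 17.4% and 10.6% (28.8% and 22.4% before thinning). The ratio stayed negative and past the fold under all 9 alternatives (-1.43 to -0.92). The lowest of these left out sub-clusters led by genes of FAPs (43 and 50 cells) or endothelium (24 and 27 cells). Most Cxcl1 UMIs of macrophage-like cells in WT lay in a single named subset, given below. The difference between the FAP-like and macrophage-like ratios was not tested.

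For Cxcl1 the named FAP and macrophage subsets had the direction of their type. Cxcl1 was higher in GSDME-KO in all 6 named FAP subsets. Its log2 ratio ran from 0.41 in FAPs-0-like cells (1293 and 1718 CPM) to 1.32 in FAPs-5-like cells (380 and 946 CPM). The next highest was 0.90, in FAPs-6-like cells. FAPs-5-like cells shared the leading genes Fmod, Tnmd, Cilp2, Kera and Col11a1 with tenocyte-like cells. At resolution 1.2 tenocyte-like cells rose from 358 and 274 to 441 and 392. FAP-like cells fell from 1950 and 2478 to 1868 and 2360. Whether the cells that changed type were FAPs-5-like was not tested. The Cxcl1 level was highest in FAPs-1-like cells, which also carried Ifit1 and other interferon-induced genes, with 2095 and 2851 CPM. FAPs-4-like cells, which carried Pi16, had 862 and 1612 CPM. Among the named macrophage subsets Cxcl1 was highest in the Trem2 Gpnmb-like subset, with 1553 CPM (1491 to 1617) and 524 CPM (492 to 559), a log2 ratio of -1.57. This subset held 2370 of the 3428 Cxcl1 UMIs of macrophage-like cells in WT and 950 of the 1893 in GSDME-KO. Its part in the ratio of the whole type was not tested. Several macrophage sub-clusters had no name, the largest with 228 and 262 cells. At subset resolution 1.0 the Trem2 Gpnmb-like name went to 76 and 80 cells, and Cxcl1 was not among their leading genes. Cxcl1, Cxcl2 and Cxcl3 were among the leading genes of an unnamed sub-cluster of 114 and 149 cells. Lyve1 Folr2-like cells had 164 and 101 CPM and Ccr2 Nlrp3-like cells 213 and 116 CPM, both also lower in GSDME-KO. In the last subset, however, the share of cells with a UMI after thinning was 7.69% and 13.5%, the opposite order.

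**Figure D4:**
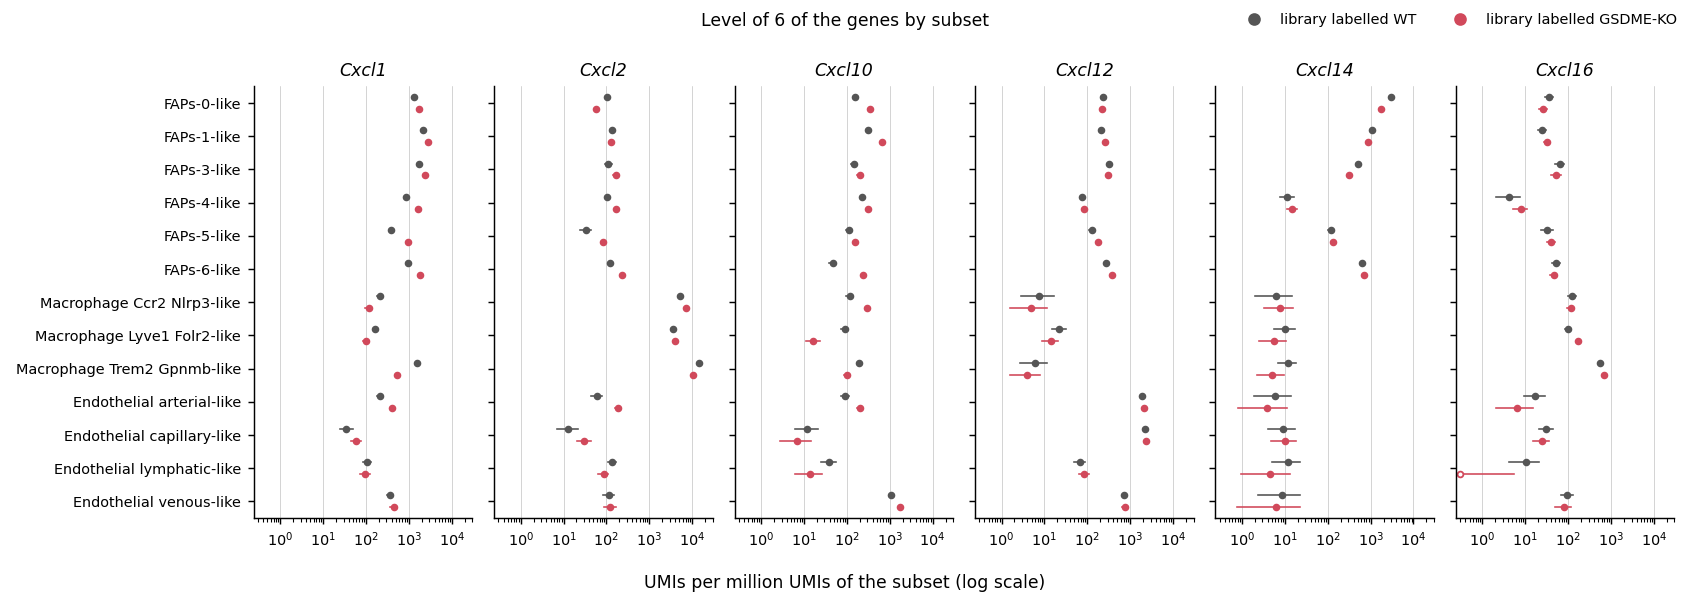
Level of 6 of the genes (UMIs per 1000000 UMIs of the subset, log scale) in FAP, macrophage and endothelial subsets, grey for WT and red for GSDME-KO, with exact 95% Poisson intervals. Cxcl1 red points lie right of grey in all 6 named FAP subsets and left in all 3 named macrophage subsets. Cxcl14 runs from 3046 CPM in FAPs-0-like to 11.4 CPM in FAPs-4-like cells of WT. Sub-clusters without a name are not drawn, the largest among macrophage-like cells with 228 and 262 cells.

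Cxcl2, another neutrophil attractant, was mostly read in myeloid cells. Macrophage-like cells had 6282 CPM (6218 to 6347) and 5750 CPM (5694 to 5805), a log2 ratio of -0.13 (-0.15 to -0.11), and neutrophil-like cells, with 24 and 32 cells, had 2107 and 2160 CPM. The neutrophil-like cells differed in marker content between libraries, with 6 neutrophil markers at 4532 and 26751 CPM, 6 monocyte markers at 3114 and 3772 CPM, 8 macrophage markers at 1192 and 785 CPM and 6 FAP markers at 3577 and 736 CPM. All other types lay below macrophage-like and neutrophil-like cells. The thinned shares of macrophage-like cells with a UMI were 55.9% and 61.3%, against 4.94% and 3.49% of T-like cells, so level and share differed in opposite directions. A single cell held up to 1154 UMIs in WT and 488 in GSDME-KO, and without the richest 1% of cells the log2 ratio was -0.010. The macrophage subsets had no common direction. Trem2 Gpnmb-like cells had 14452 and 10284 CPM (-0.49), Ccr2 Nlrp3-like cells 5078 and 7133 CPM (0.49) and Lyve1 Folr2-like cells 3547 and 3955 CPM (0.16). At subset resolution 1.0 Cxcl2, like Cxcl1, was among the leading genes of the unnamed sub-cluster given above and not of Trem2 Gpnmb-like cells.
In endothelial-like cells Cxcl2 was 122 and 187 CPM (0.61, 0.49 to 0.74), and in the arterial-like subset 60.1 and 188 CPM (1.65, 1.18 to 2.14). In the arterial-like cells of GSDME-KO 2 of 106 cells held 50% of the 146 UMIs, and without the richest 1% of cells the ratio was 1.13. MuSC-like cells had 27.4 and 417 CPM (3.92, 3.51 to 4.37), with 3 cells holding 45.9% of the 608 UMIs in GSDME-KO. Without the richest 1% of cells that ratio was 3.67. Only 223 of 1950 and 356 of 2478 FAP-like cells held Cxcl2, at 111 and 132 CPM (0.24, 0.15 to 0.33).
Cxcl1 and Cxcl2 were often read in the same cells. Of thinned FAP-like cells with Cxcl2, 76.5% in WT and 80.3% in GSDME-KO held Cxcl1, against 46.7% and 58.5% of those without. Of thinned macrophage-like cells with Cxcl2, 25.5% and 13.9% held Cxcl1, against 7.24% and 5.5% of those without. Cells of a library share their source, so these shares are descriptions.

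Cxcl5, the third ELR ligand, was a rare transcript of FAP-like cells. Only 100 of 1950 and 127 of 2478 of them held a UMI, and the levels were 55.7 CPM (51.8 to 59.7) and 42.1 CPM (39.3 to 45.1). The richest 1% of cells held 74.3% and 63% of the UMIs. The log2 ratio of -0.40 (-0.54 to -0.26) was 0.12 without those cells and -0.018 as a mean over cells, so its direction depended on them. FAPs-1-like cells had the highest level, 126 and 92.1 CPM, and FAPs-0-like cells had 39.9 and 11.3 CPM. FAPs-5-like cells (2.29 and 30.9 CPM) and FAPs-6-like cells (3.53 and 20.2 CPM) went the other way. In the former 2 of 160 cells held 83.1% of the 71 UMIs in GSDME-KO, and in the latter the ratio of 2.52 was 0.69 without the richest 1% of cells. Of thinned FAP-like cells with Cxcl5, 28 of 36 and 47 of 54 also held Cxcl1.

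Cxcl10, an interferon-induced ligand of Cxcr3, was higher in GSDME-KO in FAP-like cells. It was 201 CPM (194 to 209) and 391 CPM (383 to 400), a log2 ratio of 0.96 (0.90 to 1.02), and its thinned shares were 9.63% and 14.8%, against 3.7% and 1.16% in T-like cells. The ratio stayed past the fold under all 9 alternatives (0.85 to 1.14). All 6 FAP subsets were higher, from 0.41 in FAPs-3-like cells (151 and 201 CPM) to 2.34 in FAPs-6-like cells (46.4 and 235 CPM), and FAPs-1-like cells had the highest level (317 and 649 CPM). MuSC-like cells had the opposite order, 118 and 64.4 CPM (-0.87, -1.24 to -0.52), from 23 and 17 cells. That ratio ran from -1.55 to -0.30 under the 9 alternatives. In pericyte-like cells Cxcl10 was 80.5 and 393 CPM, with 3 cells holding 71.1% of the UMIs of GSDME-KO. The pericyte-like log2 ratio of 2.29 was 0.41 as a mean over cells. Pericyte-like cells with endothelial RNA had the opposite order, 428 and 314 CPM (-0.45, -0.55 to -0.35), from 1850 and 1599 UMIs. Their WT level was the highest of all types in that library.
Cxcl9, also induced by interferon, differed less in FAP-like cells. It was 143 and 190 CPM (0.40, 0.32 to 0.48), with 117 and 322 CPM in FAPs-0-like cells (1.46) and 150 and 56.9 CPM in FAPs-3-like cells (-1.39). The latter direction rested on a few cells, since 1 of 231 WT cells held 113 of the 148 UMIs, and without the richest 1% of cells the ratio was 0.88. FAPs-4-like and FAPs-5-like cells were lower in GSDME-KO, at 118 and 90.4 CPM and at 101 and 70.5 CPM, with log2 ratios of -0.39 and -0.52 and of -0.32 and -0.76 without the richest 1% of cells. Of thinned FAP-like cells with Cxcl9, 39.8% and 46.3% held Cxcl10, against 7.5% and 11.4% of those without.
In endothelial-like cells Cxcl9 was 262 and 284 CPM (0.12) and Cxcl10 270 and 329 CPM (0.29). Venous-like cells, a type through which leukocytes are known to leave the blood, had the highest levels of both among the 4 named subsets, from 46 and 39 cells. Their Cxcl10 was 1090 CPM (997 to 1190) and 1702 CPM (1562 to 1851), and their Cxcl9 387 CPM (333 to 449) and 754 CPM (662 to 855). The thinned shares of venous-like cells with Cxcl9 were 17.4% and 53.8%. Venous-like cells held 178 and 242 Cxcl9 UMIs, against 1937 and 1995 in all endothelial-like cells. For Cxcl10 these were 501 and 546, against 1998 and 2316. Several endothelial sub-clusters had no name, the largest with 417 and 394 cells. Another, of 129 and 122 cells, had Ifit1 and Gbp2 among its leading genes. Without the richest 1% of venous-like cells the log2 ratio of Cxcl10 went from 0.64 to 1.13. Capillary-like cells had 127 and 89.6 CPM of Cxcl9, a log2 ratio of -0.50 that was 0.012 without the richest 1%.
In macrophage-like cells Cxcl9 was 39.1 and 82.4 CPM (1.07, 0.85 to 1.30), but 12 cells held 85.4% of its UMIs in GSDME-KO, and without the richest 1% of cells the log2 ratio was 0.29. A sub-cluster of 22 cells in each library led by Ifit3, singled out after its values were seen, held 45 of the 227 UMIs in WT and 321 of the 596 in GSDME-KO, the latter in 3 cells. Cxcl10 was 127 and 138 CPM in macrophage-like cells (0.11). Its subsets differed, with 191 and 99.3 CPM in Trem2 Gpnmb-like cells, 89.1 and 16.6 CPM in Lyve1 Folr2-like cells and 116 and 300 CPM in Ccr2 Nlrp3-like cells. The first of these ratios, -0.95, was 1.19 at a finer subset resolution.

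Genes known to respond to stress, NF-κB or interferon were read beside these ligands. Over all genes the shares past the fold, given above, were 5.28% higher and 8.26% lower in FAP-like cells, with a median log2 ratio of -0.05, and 6.98% and 8.85% in macrophage-like cells, with a median of -0.03. In FAP-like cells the 20 immediate-early and heat-shock genes, which are also induced by tissue dissociation, summed to 19252 and 27901 CPM, with 10 higher past the fold, 0 lower and a median log2 ratio of 0.52. Those with the most UMIs were Hsp90aa1, a chaperone (2100 and 3202 CPM), and Jund (1988 and 2584 CPM). Of 15 NF-κB targets 7 were higher and 0 lower, with a median of 0.55, and the monocyte attractants Ccl7 and Ccl2 were 326 and 677 CPM and 332 and 645 CPM. Of 15 interferon-induced genes 0 were higher and 4 lower, with a median of -0.56, and the GTPases Iigp1 and Irgm1 were 717 and 482 CPM and 401 and 269 CPM. In these cells Cxcl1, Cxcl2, Cxcl9, Cxcl10 and Cxcl12 had the sign of the first 2 medians and the opposite sign to the third. Cxcl5, Cxcl13, Cxcl14, Cxcl16 and Cxcr4 had the sign of the third, Cxcl16 with an interval that included 0.
In macrophage-like cells, where Cxcl1 was lower, the medians of the 3 lists were 0.04, 0.44 and -0.31, with 5, 5 and 0 genes higher and 1, 0 and 4 lower. In endothelial-like cells they were 0.30, 0.26 and -0.51, against 0.03 over all genes. MuSC-like cells had medians of 0.79 and 0.82 for the first 2 lists and pericyte-like cells 0.72 and 0.44, against 0.04 and -0.03 over all genes. The part of dissociation or of these responses in the levels of Cxcl1, Cxcl2, Cxcl9 and Cxcl10 was not tested.

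Cxcl12, the ligand of Cxcr4, was a vascular transcript with close levels in both libraries. It was 1377 CPM (1350 to 1404) and 1517 CPM (1488 to 1546) in endothelial-like cells, 1154 and 1269 CPM in pericyte-like cells and 1106 and 1256 CPM in pericyte-like cells with endothelial RNA. The pericyte-like pair overlapped within each library, and endothelial-like cells lay above both. FAP-like cells followed at 202 and 224 CPM. Log2 ratios in these 4 types ran from 0.14 to 0.18, under the fold. In thinned cells 63.2% and 66.2% of endothelial-like cells held a UMI, against 1.23% and 0% of T-like cells.
The endothelial subsets kept 1 order in both libraries. Capillary-like cells had 2189 and 2280 CPM, arterial-like cells 1863 and 2091 CPM, venous-like cells 707 and 739 CPM and lymphatic-like cells 66.9 and 86 CPM. The capillary and arterial intervals were apart in WT (2098 to 2283 and 1771 to 1958) and overlapped in GSDME-KO (2187 to 2376 and 1991 to 2196). Venous-like cells, with the highest Cxcl9 and Cxcl10 of the named subsets, thus had the lowest Cxcl12 of the 3 named blood vessel subsets. Among FAP subsets Cxcl12 was lowest in FAPs-4-like cells, at 76.6 and 84.2 CPM, and FAPs-6-like cells had 279 and 379 CPM (0.44, 0.28 to 0.60). The richest 1% of endothelial-like cells held only 7.9% and 8.3% of Cxcl12 UMIs.

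Cxcl14, a constitutive stromal chemokine, was lower in GSDME-KO in FAP-like cells, the opposite sign to Cxcl1 and Cxcl10 there. It was 970 CPM (953 to 986) and 735 CPM (723 to 747), a log2 ratio of -0.40 (-0.43 to -0.37), with thinned shares of 31.7% and 26.4% against 2.47% and 1.16% in T-like cells. The ratio stayed negative and under the fold in all 9 alternatives (-0.48 to -0.35). FAPs-0-like cells had 3046 CPM (2972 to 3121) and 1780 CPM (1737 to 1823), a log2 ratio of -0.78. FAPs-1-like cells had 1077 and 889 CPM (-0.28) and FAPs-3-like cells 502 and 320 CPM (-0.65). The other 3 subsets were not lower. FAPs-6-like cells had 621 and 695 CPM (0.16), FAPs-5-like cells 119 and 131 CPM and FAPs-4-like cells 11.4 and 14.6 CPM, the last pairs with overlapping intervals. The FAPs-5-like ratio was -0.21 without the richest 1% of cells. FAPs-0-like cells were also led by the stress genes Hspa1a, Fos and Jun. At subset resolution 1.0 an unnamed FAP sub-cluster led by Hspa1a held 111 and 216 cells, and FAPs-0-like cells numbered 177 and 187. The part of stress-rich cells in the FAPs-0-like ratio of Cxcl14 was not tested.
Schwann-like cells had 280 and 148 CPM of Cxcl14 (-0.92, -1.22 to -0.62), but 2 of 197 WT cells held 50.3% of the 304 UMIs, and without the richest 1% of cells the ratio was -0.35, under the fold. The 6 FAP markers summed to 8972 and 5549 CPM in Schwann-like cells, and their part in this ratio was not tested. Tenocyte-like cells had 206 and 194 CPM, and endothelial-like cells 6.9 and 6.54 CPM. The pericyte-like ratio of 1.69 was -1.99 without the richest 1% of cells, since 3 cells held 95% of the 60 UMIs in GSDME-KO.

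Cxcl13, the B-cell attractant, was read in very few cells. FAP-like cells held 113 and 56 UMIs, at 8.12 CPM (6.69 to 9.76) and 2.81 CPM (2.12 to 3.65), a log2 ratio of -1.53 (-2.02 to -1.06). These came from 23 and 22 cells, and 1 WT cell held 43 UMIs. FAPs-1-like cells held 70 and 28 of them and FAPs-4-like cells 33 and 25.

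**Figure D5:**
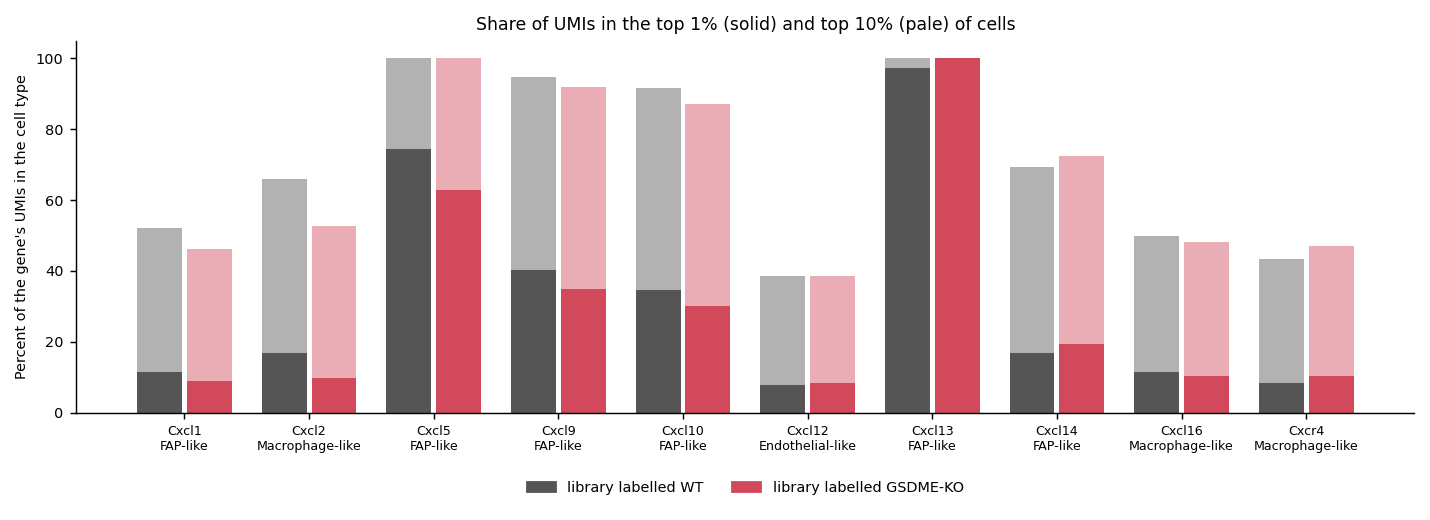
Percent of each gene's UMIs held by the 1% (solid) and 10% (pale) of cells with the most UMIs, in the cell type that held most of the gene, grey for WT and red for GSDME-KO. Cxcl13 and Cxcl5 sat in a few cells, with 97.3% and 74.3% in the top 1% of WT, while Cxcl12 in endothelial-like cells had 7.9%.

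Cxcl16, the membrane-bound ligand of Cxcr6, was read in antigen-presenting cells. Dendritic-like cells had 538 CPM (493 to 587) and 448 CPM (410 to 490), and macrophage-like cells 282 CPM (269 to 296) and 340 CPM (327 to 354). These were the highest types in both libraries, with log2 ratios of -0.26 and 0.27. The thinned shares of macrophage-like cells with a UMI were 21.3% and 24.4%, against 0% and 1.16% of T-like cells. Trem2 Gpnmb-like cells had the highest level of the macrophage subsets, 550 and 701 CPM (0.35, 0.22 to 0.48). Lyve1 Folr2-like cells had 100 and 171 CPM (0.77, 0.46 to 1.08) and Ccr2 Nlrp3-like cells 122 and 114 CPM.

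Cxcr4, the receptor of Cxcl12, was read in leukocytes and MuSC-like cells and hardly in stroma. Neutrophil-like cells, whose marker content differed as given above, had 530 and 278 CPM, NK-like cells 376 and 346 CPM and B-like cells 419 and 294 CPM. The FAP markers in NK-like cells summed to 692 and 3962 CPM and in B-like cells to 831 and 10049 CPM. Macrophage-like cells, at 301 and 256 CPM, overlapped these across the libraries and lay above T-like cells (170 and 187 CPM). Dendritic-like cells (144 and 83.2 CPM) and MuSC-like cells (108 and 83.6 CPM) followed, and MuSC-like cells lay above endothelial-like cells (63 and 60.7 CPM). FAP-like cells had 3.45 and 1.91 CPM from 48 and 38 UMIs. Thinned shares were 25.7% and 21.6% in macrophage-like cells and 0.334% and 0.3% in FAP-like cells, so the FAP-like ratio of -0.85 concerns a level near background.
All 3 named macrophage subsets were lower in GSDME-KO. Lyve1 Folr2-like cells had 327 and 271 CPM (-0.27), Trem2 Gpnmb-like cells 288 and 262 CPM (-0.13, -0.32 to 0.06) and Ccr2 Nlrp3-like cells 184 and 122 CPM (-0.59, -0.94 to -0.24). The interval of the second included 0. Cxcr4 and Cxcl12 were mostly read in different types. Macrophage-like cells had 50.7 and 48.8 CPM of Cxcl12, of which 10 and 12 cells held 52.4% and 60.9%. Capillary-like cells had both, with 78.3 and 102 CPM of Cxcr4.

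The other CXC ligands, receptors, scavengers and a protease came from a list of 16 genes, of which 13 were in the table. Pf4, a CXC ligand, had 2377 and 2365 CPM in macrophage-like cells (-0.01, -0.04 to 0.03). Cxcl3, an ELR ligand beside Cxcl1, had 90.8 and 65.2 CPM there (-0.48, -0.66 to -0.30) and 5.82 and 9.78 CPM in FAP-like cells. These were the same signs as Cxcl1 over the whole types. Among subsets with at least 20 UMIs, FAPs-1-like (1.51), FAPs-6-like (0.77) and Trem2 Gpnmb-like cells (-0.77) kept these signs. FAPs-4-like (-1.40, 27 and 15 UMIs) and Lyve1 Folr2-like cells (1.89, 5 and 24 UMIs) had the opposite signs. Ccr2 Nlrp3-like cells had 0.07, with an interval that included 0. Ackr3, a scavenger of Cxcl12, was 514 and 432 CPM in FAP-like cells (-0.25) and 138 and 201 CPM in endothelial-like cells (0.54, 0.42 to 0.66). Ackr1, which binds many inflammatory chemokines, was 44 and 63.4 CPM in FAP-like cells (0.53, 0.38 to 0.67). In venous-like cells it was 109 and 18.7 CPM (-2.54, -4.05 to -1.32), from 50 and 6 UMIs. Among receptors, Cxcr6 was 456 and 355 CPM and Cxcr3 98.7 and 92.3 CPM in T-like cells. Cxcr5 had 16 and 19 UMIs in B-like cells, and Cxcr2 had 4 and 26 UMIs in the neutrophil-like cells, which carried the fewer neutrophil markers in WT. Dpp4, a protease that trims Cxcl10 and Cxcl12, was 74.8 and 84.6 CPM in FAP-like cells.

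The genes most alike in pattern were found over 13 cell types by Pearson's r of log2(CPM + 10), among 11936 genes. Those genes had at least 100 UMIs in each library, whereas Cxcl13 had 123 and 66. Cxcl13 lay under the 10 CPM added in every type and was highest in FAP-like cells (8.12 and 2.81 CPM). Its r values thus rest mainly on FAP-like cells. Cxcl13 was most like Agtr2 (r = 0.98), Cxcl12 like Sparcl1 (0.95), Cxcl10 like Myd88 (0.95), Cxcl2 like Mdm2 (0.95), Cxcl14 like Islr (0.94), Cxcl16 like Gpr35 (0.94) and Cxcl5 like Rbp4 (0.94). Values were lower for Cxcr4 with Grk2 (0.90), Cxcl1 with B3galnt1 (0.88) and Cxcl9 with Anxa3 (0.87). The next were Ret and Col6a6 for Cxcl13, Cldn15 and Igfbp7 for Cxcl12, Parp12 and Rtp4 for Cxcl10, Fzd2 and Gsn for Cxcl14, and Lrrc17 and Kcnt2 for Cxcl5. Among the 10 genes themselves, Cxcl5 and Cxcl13 were most alike (0.88), then Cxcl9 and Cxcl10 (0.75), while Cxcl1 and Cxcl2 had r = 0.26. The points are cell types of the same libraries and are not independent.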

How the data were processed

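Single-cell RNA was measured in 1 WT and 1 GSDME-KO library. The values deposited by the authors are the natural log of 1 plus UMIs per 10000 UMIs of the cell. The submitters' processing notes name Cell Ranger 2.1.1 and mm10. Whole UMI counts were recovered from the deposited values and summed per cell type and library (Python 3.11.15, numpy 2.4.6, pandas 2.3.3), with exact intervals from scipy 1.17.1. Sums, not cells, were compared, and 1 library per genotype allows no test. Cell types came from 2000 variable genes without CXC genes, 30 principal components, Harmony integration and Louvain clustering at resolution 0.8 (0.5 within types) with 20 neighbors (scikit-learn 1.9.0, igraph 0.11.9). Harmony was run as a reimplementation of its published steps. Scrublet (scanpy 1.11.5) marked 101 (1.59%) WT and 109 (1.54%) GSDME-KO cells, which were kept and left out as an alternative. UMI recovery and ratios were tested on simulated data. All 10 genes were reported, with the genes of the CXC list, the 2 genes with the most UMIs of each response list and the 3 genes most alike in pattern to each, given in part. The members and lists were chosen with earlier results of these data known.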

Additional observations from a re-analysis of the deposited data

Results flagged for a closer look

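Cxcl1 and, less firmly, Cxcl10 and Cxcl12 were past the fold in opposite directions in different cell types of the same 2 libraries. This held also without the richest 1% of cells. Values are log2 ratios of GSDME-KO over WT, and the difference between types was not tested. Cxcl1 was 0.97 in tenocyte-like, 1.52 in pericyte-like and 1.22 in MuSC-like cells but -1.18 in macrophage-like cells. Most of the macrophage-like Cxcl1 UMIs of WT lay in the Trem2 Gpnmb-like subset. Cxcl10 was 0.96 in FAP-like, 0.93 in tenocyte-like, 2.29 in pericyte-like and 1.77 in dendritic-like cells but -0.87 in MuSC-like cells. The MuSC-like ratio of Cxcl10 ran from -1.55 to -0.30 under the alternatives, the last under the fold. The pericyte-like ratio of Cxcl10 was 0.41 as a mean over cells, also under the fold. In pericyte-like cells with endothelial RNA Cxcl1 was 0.15 and Cxcl10 -0.45, both under the fold. Cxcl12 was 1.16 in lymphatic endothelial-like cells, from 24 and 53 UMIs, and -0.68 in Schwann-like cells. The first of these calls was lost in another grouping of lymphatic cells, the endothelial lymphatic-like subset of 82 and 82 cells, which had 66.9 and 86 CPM of Cxcl12, a log2 ratio of 0.36 (-0.22 to 0.96). In lymphatic endothelial-like cells 1 GSDME-KO cell held 28 of the 53 UMIs, and the summed level of 8 pericyte markers was 53.2 and 380 CPM. In Schwann-like cells 6 FAP markers summed to 8972 and 5549 CPM. In pericyte-like cells the same FAP markers summed to 3172 and 5984 CPM. The part of these markers in the ratios was not tested.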

How the results depend on the processing

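No paired analysis was possible because each genotype has 1 library, and no library could be left out. Values are log2 ratios of GSDME-KO over WT. Of the main results 106 values stayed and 22 moved. Among the 106, 18 were counts of response-list genes with a minimum of 100 UMIs, which nearly all those genes passed. Of the other results 659 stayed, 140 moved and 22 that were past the fold changed sign. A ratio stayed when it lay within its counting interval, and a count of genes when it lay within 1.5-fold of the main count. Without Harmony integration, FAP-like ratios were 0.53 for Cxcl1, 0.29 for Cxcl9, 0.85 for Cxcl10, -0.84 for Cxcl13 and -0.48 for Cxcl14, Cxcl2 was -0.25 in macrophage-like cells, and Cxcl2 in T-like cells turned to 0.060. At resolutions 0.4 and 1.2 and with all variable genes kept, macrophage-like Cxcl2 was -0.22, -0.25 and -0.23. Pericyte-like Cxcl2 turned to -0.15 at 1.2 and MuSC-like Cxcl9 to 1.93 with all variable genes. As means over cells, FAP-like ratios were 0.68 for Cxcl1, -0.018 for Cxcl5, 0.67 for Cxcl9, 1.14 for Cxcl10 and -0.35 for Cxcl14, macrophage-like Cxcl2 was -0.015 and endothelial-like Cxcl12 0.090. Those that turned were lymphatic endothelial-like Cxcl2 (0.95) and Cxcl10 (0.33), pericyte-like Cxcl2 (-0.33) and Cxcl14 (-1.40), MuSC-like Cxcl9 (0.089) and Schwann-like Cxcl10 (-0.65). Without the richest 1% of cells, FAP-like ratios were 0.62 for Cxcl1, 0.12 for Cxcl5, 0.52 for Cxcl9, 1.05 for Cxcl10 and -0.44 for Cxcl14, and macrophage-like Cxcl2 was -0.010. Those that turned were lymphatic endothelial-like Cxcl2 (0.041), pericyte-like Cxcl2 (-0.18) and Cxcl14 (-1.99), Schwann-like Cxcl10 (-0.38) and T-like Cxcl10 (-0.78). T-like Cxcl10 also turned, to -1.51, without Scrublet calls. At subset resolution 1.0, Cxcl13 in FAPs-1-like (0.50), Cxcl2 in FAPs-5-like (-0.37) and Cxcl10 in Trem2 Gpnmb-like cells (1.19) turned. Leaving out sub-clusters led by genes of another lineage, chosen after seeing the data, turned none of the ratios and moved 3 of them, all in macrophage-like cells (Cxcl1 to -1.43, Cxcl12 to -0.74 and Cxcl14 to -0.84). Leaving out the richest 1% of cells of each subset, also chosen after seeing the data, turned Cxcl2 in FAPs-0-like (0.53), Cxcl5 in FAPs-3-like (0.25), Cxcl9 in FAPs-3-like (0.88) and Cxcl2 in endothelial lymphatic-like cells (0.078). Except where fewer cells were kept by construction, the cause was not tested.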
